A study of Danio rerio with 4 samples.

Results

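The long arm of zebrafish chromosome 4 was taken as the stretch from position 30000001 to the chromosome end at 78093715 in the GRCz11 genome. It was cut into 4810 windows of 10 kb, out of 134526 windows on chromosomes 1 to 25. All peaks of the 2 deposited peak lists that lie there were added: 228 of 24109 peaks in the control list and 189 of 15248 in the actl6a list. Merged where they touched or overlapped, they formed 361 union peaks, out of 29639. The members were chosen by position and not by a cut on any measured value, though earlier results of these data were known.

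Chromatin accessibility had been measured by ATAC-seq, in which a transposase inserts sequencing adapters into DNA that is not tightly packed. The tissue was pronephric duct, the tubule of the embryonic kidney, at 30 hours post fertilization. All embryos came from a line in which a Na, K-ATPase alpha1A4:GFP transgene marks the pronephric epithelium, and duct fragments were picked by their fluorescence from 15 embryos. The 2 control libraries were from embryos given a standard control morpholino at the 1-cell stage (genotype label WT). The 2 actl6a libraries were from embryos given a translation-blocking morpholino against actl6a, whose product is an actin-related subunit of the chromatin remodellers of the SWI/SNF family (genotype label actl6a knockdown). A morpholino lowers the protein and leaves the gene intact. Each library was made from 10000 to 20000 cells of pooled fragments, and whether the pools shared parents is not stated, so pool and group cannot be told apart. Marker genes of the duct could not be placed on the tracks without an annotation of that build and were not analysed here.

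The long arm is known as an unusual part of the zebrafish genome. It is largely heterochromatic and replicates late, it is rich in repeats and in genes for small structural RNAs, and many of its protein-coding genes belong to large, closely similar families, such as NLR immune receptors and zinc finger proteins. In wild strains its end is linked to sex determination. Reads from similar copies are hard to place, and how such reads were handled is not stated.

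Values are given as coverage relative to the mean of the same track over chromosomes 1 to 25, so 1 is the genome mean. The depth inferred from the steps of the tracks was 117 M and 136 M reads in control against 148 M and 165 M in actl6a libraries, so both actl6a libraries were deeper. At the genome mean this is about 873 to 1230 reads per 10 kb window. Bins of 50 bp without any coverage made up 8.20% and 6.62% of the chromosomes in control against 5.48% and 4.65% in actl6a libraries. The part of depth in the results below was not tested.

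Mean coverage of the long arm was below the genome mean in all 4 libraries and lower in the actl6a libraries. Control replicates 1 and 2 had 0.926 and 0.915, and actl6a replicates 1 and 2 had 0.834 and 0.846. The groups did not overlap, with means of 0.920 ± 0.00728 and 0.840 ± 0.00899 (SD, n = 2). The difference of -0.0805 exceeded the spread within both groups. An exact permutation test over the libraries, two-sided, had p = 0.33, which is the lowest p that groups of 2 and 2 can reach. On the rest of chromosome 4 the means were 1.07 ± 0.00721 and 1.06 ± 0.00163 (SD, n = 2). With the start of the arm set at 35000000 the difference was -0.0510. In bulk libraries, lower coverage in every cell and loss of coverage from part of the cells cannot be told apart. Nor can either be told apart from a difference between the embryo pools, as whether these shared parents is not stated.

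The level itself varied more along the long arm than elsewhere. Over the 4 libraries, 10% of long-arm windows lay below 0.315 times the genome mean and 10% above 1.4 times, where the same limits were 0.752 and 1.21 on the rest of chromosome 4. Domains of level were runs of at least 10 windows in which the running median over 11 windows stayed at least 25% below or above the genome mean. Low domains covered 16.85 Mb or 35.0% of the arm in 40 runs, where 3.39% of all windows lay in such runs. High domains covered 2.30 Mb or 4.78% in 13 runs, against 1.54% of all windows. The longest low domain ran from 39400001 to 41580000. It had 0.556 and 0.560 in control against 0.606 and 0.594 in actl6a libraries, so it was dim in both groups. The longest high domain ran from 43120001 to 43520000, with 1.32 and 1.37 in control against 1.86 and 1.76 in actl6a libraries. Both actl6a libraries were above both control libraries there.

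**Figure D1:**
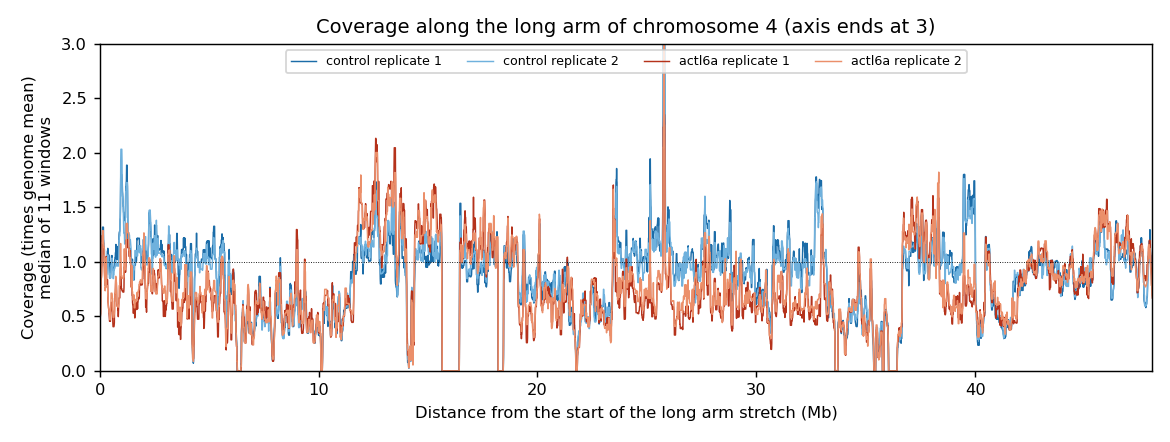
Coverage along the long arm as the running median over 11 windows of 10 kb, in times the genome mean, against distance from the start of the stretch in Mb; each line is 1 of the 4 libraries and the axis ends at 3. Lines of a group run together, and the actl6a lines lie below the control lines in blocks, as at the start of the arm, and above them in shorter stretches.

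Coverage differed between the groups in blocks, not evenly along the arm. Domains of difference were runs of at least 10 windows in which the running median of the log2 ratio, actl6a over control on the log2(coverage + 0.1) scale, stayed at or below -0.3 or at or above 0.3. Lower domains covered 16.31 Mb or 33.9% of the arm in 35 runs, with a median length of 260 kb, against 1.28% of all windows. Higher domains covered 2.08 Mb or 4.32% in 14 runs, against 0.327% of all windows. On all other chromosomes together there were 4 lower and 10 higher domains, which covered 0.79 and 2.32 Mb. The rest of chromosome 4 held no higher domain and only the start of the lower domain that reaches into the arm.

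Lower domains separated by at most 1 Mb formed 7 blocks. The first block ran from 29.84 to 36.07 Mb and held 12 domains, so the difference began 0.16 Mb before the start set for the arm. Its mean coverage was 1.12 and 1.09 in control against 0.754 and 0.805 in actl6a libraries. The largest block ran from 53.55 to 63.25 Mb with 15 domains, at 1.13 and 1.08 in control against 0.740 and 0.796 in actl6a libraries. A block from 49.15 to 51.27 Mb held 4 domains, with 0.853 and 0.877 in control against 0.681 and 0.702 in actl6a libraries. The groups did not overlap in the mean of any of these blocks. The blocks were joined from domains picked by this same difference, so this is a description. The remaining blocks were single domains, the longest of which ran from 68.37 to 70.03 Mb, and the others were at 41.46 to 41.62, 65.55 to 65.66 and 71.74 to 71.94 Mb.

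The longest lower domain ran from 54320001 to 57160000, a length of 2840 kb. Mean coverage there was 1.26 and 1.21 in control against 0.760 and 0.838 in actl6a libraries. The groups were apart in this direction in 267 of its 284 windows, against 17.4% of all windows, in a domain picked by this same difference. The domain from 68370001 to 70030000 had 1.38 and 1.31 in control against 0.716 and 0.785 in actl6a libraries, the strongest median log2 ratio of the 35 at -0.75. Both of its edges were abrupt: in the 100 kb before it the median log2 ratio was 0.20 and in the 100 kb after it 0.17. The domain from 61500001 to 63000000 had 1.17 and 1.1 in control against 0.628 and 0.685 in actl6a libraries. Its edges were softer, with median log2 ratios of -0.21 and -0.26 in the 100 kb on either side.

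Over all lower domains the means were 1.14 and 1.09 in control against 0.694 and 0.751 in actl6a libraries. Control coverage there was thus above the genome mean and actl6a coverage below it. The share of 50 bp bins with any coverage in these domains was 93.7% and 94.5% in control and 83.5% and 88.2% in the actl6a libraries, although the latter were deeper. Because domains were picked by this difference, these values describe them and no test is given. Outside domains the order of the means was the opposite, with 0.800 and 0.807 in control against 0.865 and 0.856 in actl6a libraries. These windows were what remained after domains were taken out on the same values. Their median log2 ratio was 0.023, where it was 0.014 over the tested windows of the other chromosomes.

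Higher domains were shorter and depended more on the settings: they held 208 windows, but 40 with a pseudocount of 0.5, 11 with a log2 limit of 0.5, 632 with a limit of 0.2 and 329 without control replicate 2. The longest ran from 41820001 to 42080000, with 1.6 and 1.61 in control against 2.06 and 2.03 in actl6a libraries. It belonged to a group of 5 domains between 41.82 and 43.56 Mb, a stretch in which 45 of 174 windows were called higher and 0 lower in the limma test described below, where 0.447% and 0.987% of all windows were. The stretch was chosen for its higher domains, so these counts describe it. The domain from 45160001 to 45390000 had 1.11 and 1.18 in control against 1.64 and 1.6 in actl6a libraries. The domain from 38890001 to 39060000 had 0.699 and 0.668 in control against 1.03 and 0.938 in actl6a libraries. The groups did not overlap in any of the 3, which were picked by this same difference. Others lay at 47.47 to 47.60, 51.50 to 51.62, 64.55 to 64.71, 66.85 to 67.45 (2 domains) and 75.96 to 76.29 Mb (2 domains).

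Between the blocks lay long stretches without a lower domain. The longest ran from 41620001 to 49150000, where 101 of 636 tested windows were called higher (15.9%) and 6 lower (0.943%) in that test, against 0.447% and 0.987% of all windows. The end of the arm, from 71940001 on, had coverage of 1.05 in both control and 1.1 in both actl6a libraries. Of its 616 windows 0 were called lower and 17 higher (2.76%), where 0.987% and 0.447% of all windows were. These stretches were chosen because they hold no lower domain, a choice made on the same window values, so their counts are a description. Of the 1631 windows in lower domains, 332 also lay in low-level domains, so most were not in the dim parts of the arm.

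**Figure D2:**
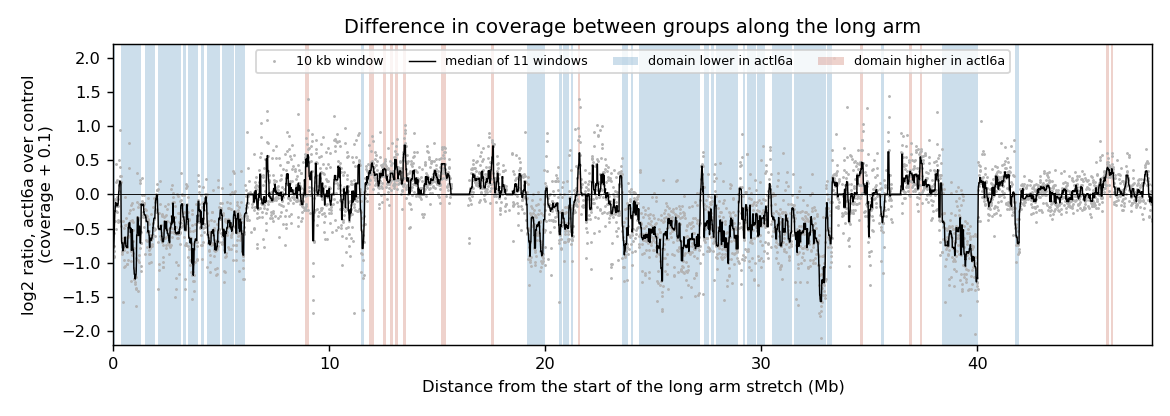
Log2 ratio of coverage, actl6a over control, for each 10 kb window (grey points) and as the running median over 11 windows (black), against distance from the start of the stretch in Mb; shading marks the 35 lower and 14 higher domains. Lower domains crowd into blocks, and towards the end of the arm the running median stays near 0 outside the higher domains there.

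Single windows were tested with limma over all 134233 windows with a mean of at least 0.05. On the long arm 1320 of 4575 tested windows were called at a Benjamini-Hochberg adjusted p under 0.05 (28.9%), where 1.43% of all windows were called. Of these, 1041 fell in the actl6a libraries and 279 rose, against 0.987% and 0.447% of all windows. At an unadjusted p under 0.05 there were 2344 on the arm, where 9.19% of all windows passed. Neighbouring windows are not independent. The actl6a libraries were both lower than either control library in 45.8% of the tested long-arm windows, and both higher in 25.9%. The same shares over all windows were 17.4% and 20.6%. The median spread within groups was 0.12 on the log2 scale on the long arm, as on the other chromosomes, and the called changes had a median size of 0.75. Of the 1041 falls, 940 lay in lower domains, and 80 of the 279 rises lay in higher domains. Calls and domains rest on the same window values, so this overlap is a description. Without actl6a replicate 1, limma called 759 long-arm windows, and each other library left out gave between 1009 and 1265.

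The largest fall was in the window from 62760001 to 62770000. Coverage was 1.99 and 1.72 in control against 0.284 and 0.434 in actl6a libraries, and limma put the log2 change at -2.11 with an SE of 0.151 and an adjusted p of 2.32e-14. At 69890001 to 69900000 coverage was 1.2 and 1.35 in control against 0.182 and 0.298 in actl6a libraries, for a log2 change of -2.04 and an adjusted p of 2.32e-12 in limma. At 62720001 to 62730000 it was 2.36 and 2.2 in control against 0.477 and 0.732 in actl6a libraries, for a log2 change of -1.78 and an adjusted p of 1.62e-13 in limma. None of the 3 had lost all signal: the bins with any coverage made up 48.5% to 92.5% of the window in the actl6a libraries, against 96.5% to 100% in control. The window with the largest fall held 1066 bp of union peaks and the other two held none, so those falls lay in DNA between peaks.

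The largest rise was in the window from 63360001 to 63370000, from 6.39 and 5.53 in control to 24.2 and 23.9 in actl6a libraries, with a log2 change of 2.0, an SE of 0.0771 and an adjusted p of 8.12e-26 in limma. It came from a narrow spike. The 50 bp bin at 63365201 to 63365250 was at 269 and 232 in control against 1114 and 1109 in actl6a libraries, in times the genome mean. Bins above 5 times the genome mean lay within 63365001 to 63366850 in all 4 libraries. Outside each library's own span of such bins the window had 0.688 and 0.612 in control against 0.543 and 0.603 in actl6a libraries. These spans ended at 63366350 in control and at 63366850 and 63366650 in actl6a libraries, so the values do not compare the same stretch. No deposited peak covers the spike. At 65900001 to 65910000 coverage rose from 0.663 and 0.730 to 1.97 and 2.16, for a log2 change of 1.44 and an adjusted p of 7.30e-12 in limma. At 51530001 to 51540000 it rose from 0.582 and 0.471 to 1.62 and 1.48, for a log2 change of 1.4 and an adjusted p of 4.87e-10 in limma. In both, the rise took in much of the window but not all of it. At least 95.5% of bins had coverage in the actl6a libraries, against 77.5% to 84.5% in control. The last 1 kb of the window at 65900001 had 0.362 and 0.117 in control against 0.332 and 0.124 in actl6a libraries. The first 1 kb of the window at 51530001 had 0.563 and 0.962 in control against 0.818 and 0.781 in actl6a libraries.

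**Figure D3:**
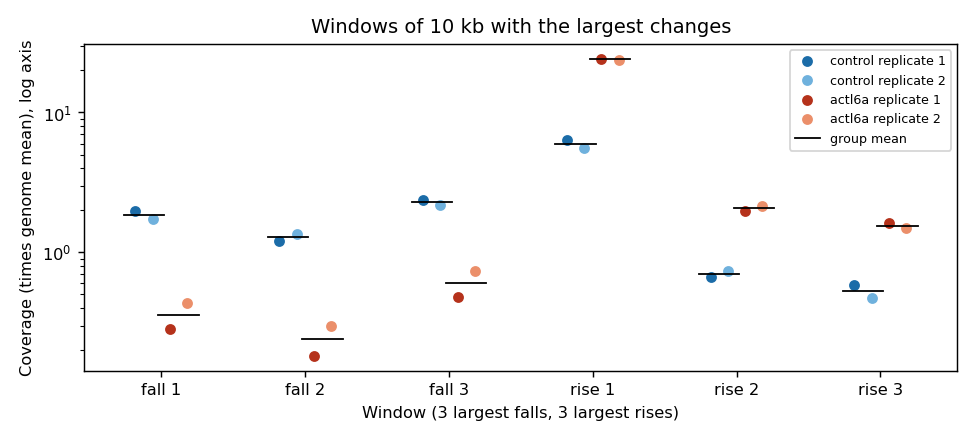
Coverage in times the genome mean (log axis) of the 3 windows of 10 kb with the largest falls and the 3 with the largest rises, in the order of the text; points are the 4 libraries and bars the mean of each group of 2. The groups are apart in all 6 windows, which the pick required. The first rise goes from about 6 to 24 times the genome mean.

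Peaks were sparse on the long arm. The control list had 4.74 peaks per Mb there and 21.6 on the rest of chromosome 4, and the actl6a list 3.93 and 12.9. The other chromosomes held 15.8 to 20.47 peaks per Mb in the control list and 10.1 to 13.0 in the actl6a list, so the arm was below all of them. The ratio of the arm to the rest of the chromosome was 0.220 in the control list (95% exact binomial interval 0.188 to 0.256) and 0.305 in the actl6a list (0.255 to 0.363). The intervals cover counting error only, and with 1 list per group there is no replicate error. Over the length of windows with a mean of at least 0.25, the ratios were 0.239 in the control list and 0.331 in the actl6a list. The arm makes up 3.58% of the chromosome length analysed and held 0.946% of the control list and 1.24% of the actl6a list.

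The peaks were spread unevenly. From 72 Mb to the end lay 128 of the 361 union peaks (35.5%), or 21 per Mb, and 33 of the 54 peaks that both lists share. From 36 to 42 Mb there were 13, or 2.17 per Mb. These densities count the union of both lists and cannot be set against the densities per list above. The rest of chromosome 4 held 781 union peaks over its 30 Mb. The longest gap without a peak was 1367 kb, from 52440032 to 53806690. Some neighbouring peaks were close together, with 92 of 360 gaps (25.6%) at most 10 kb long. The 6 Mb steps and the 1 Mb used to join domains into blocks were set after the coverage had been seen.

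**Figure D4:**
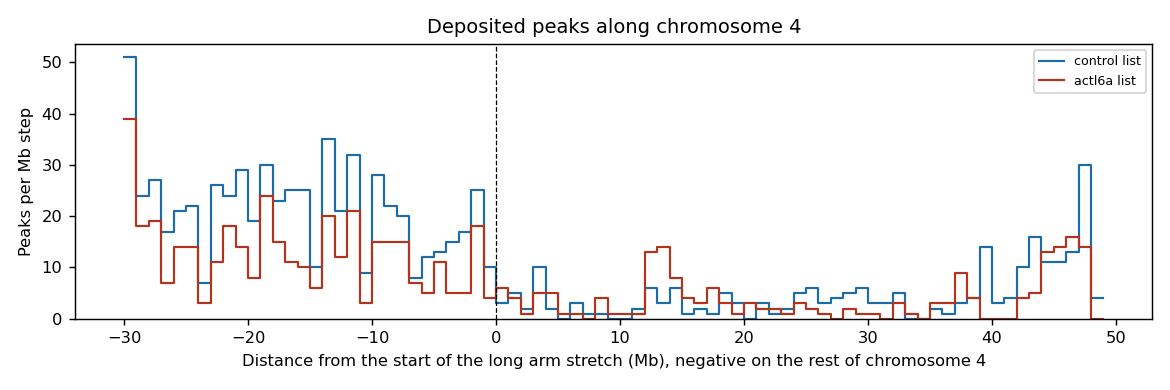
Number of deposited peaks in each Mb of chromosome 4 in the control and the actl6a list, against distance from the start of the long arm stretch in Mb, with the rest of the chromosome at negative distances. Counts drop at the start of the arm, stay low over its middle and rise again towards its end, and the actl6a list exceeds the control list in a patch 12 to 14 Mb into the arm.

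Of the long-arm union peaks 54 (14.96%) were shared, 173 (47.9%) were control-only and 134 (37.1%) actl6a-only. Over all union peaks the shares were 32.4%, 48.8% and 18.8%. Where the lists differed followed the domains: the 16.31 Mb of lower domains held 68 control-only, 20 actl6a-only and 3 shared peaks, and the 2.08 Mb of higher domains 2, 26 and 2. Outside domains there were 103, 88 and 49. From 69 to 70 Mb all 14 peaks were in the control list only. Peaks of 1 list were picked in 1 of the groups compared, and these counts are given as a description.

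The median peak on the arm stood out less from its surroundings than on the rest of the chromosome, in each of the 4 libraries. The background of a peak was the mean of its 10 kb window with all union peaks left out. The median of peak over background was 1.99 and 1.91 in control against 1.87 and 1.88 in actl6a libraries. On the rest of chromosome 4 it was 3.13 and 2.78 in control against 2.42 and 2.06 in actl6a libraries. On the arm the group means were 1.95 ± 0.0578 and 1.88 ± 0.00515 (SD, n = 2), and the difference of -0.0767 had p = 0.33 in the same exact permutation test, again the smallest possible. Over the 54 shared peaks alone the values were 3.28 and 2.45 in control against 2.52 and 2.24 in actl6a libraries, so the groups overlapped there. Leaving out control replicate 1 or 2 put the difference over all long-arm peaks at -0.0358 or -0.118.

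Tested as peaks, 20 of the 361 long-arm union peaks were called by limma (5.54%), where 0.233% of all union peaks were called. Of these, 11 fell and 9 rose in the actl6a libraries, where 0.132% and 0.101% of all union peaks did. The count was 3 with a pseudocount of 0.1, and 8 (1 fall and 7 rises) when union peaks with a mean below 2 were left out. The split also moved with the scaling: it was 2 falls and 14 rises when libraries were aligned on the median signal of union peaks, and 1 and 10 with quantile normalization. The median log2 change over all union peaks was -0.36 when values were set against the genome mean and -0.083 after the alignment on peaks. All 11 falls were control-only peaks, all 9 rises were actl6a-only peaks, and 0 were shared. A peak listed in 1 group only was picked in that group, so this match is a description and no further support. Without control replicate 2 limma called 34, and the other libraries left out gave 15 to 24.

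Each of the 20 peaks lay in a window whose background had a change of the same sign, from -1.42 to -0.36 for the falls and from 0.24 to 1.02 for the rises. The test of whole windows includes the signal of the peak and is not used here. All 11 falls lay in lower domains. Of the 9 rises, 4 lay in higher domains, 4 outside domains and 1 in a lower domain. Among all long-arm union peaks, 91 lay in lower domains, 30 in higher domains and 240 in neither. Domains also rest on whole-window values that include the peaks, so this overlap is a description. The median change of the falling peaks was -1.90 on the log2(coverage + 0.5) scale and that of their background -0.90. The rising peaks had a median change of 1.55 and their background 0.66.

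The 5 largest falls show how much of a peak's change its surroundings shared. The peak at 33244521 to 33244817 had 2.07 and 3.15 in control against 0.0560 and 0.0832 in actl6a libraries. Its window fell from 1.04 and 0.902 to 0.647 and 0.640, so this peak lost nearly all signal in a window that kept most of it. The peak at 69722642 to 69723251 had 4.30 and 3.60 in control against 0.524 and 0.580 in actl6a libraries, while its window went from 1.92 and 1.74 to 0.808 and 0.949. The peaks at 69706807 to 69707398 and 69708593 to 69708840 share 1 window, which went from 1.59 and 1.61 to 0.638 and 0.618. The first of this pair had 2.76 and 2.5 in control against 0.0573 and 0.369 in actl6a libraries. The second had 1.66 and 4.44 in control, a wide spread, and 0.0748 and 0.209 in actl6a libraries. The peak at 69828425 to 69828921 had 6.60 and 2.05 in control against 0.644 and 0.471 in actl6a libraries, over a window at 1.33 and 1.08 against 0.624 and 0.591. All but the first of these 5 peaks lie in the lower domain from 68370001 to 70030000.

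Among the 5 largest rises, the peak at 65907281 to 65907930 went from 0.420 and 0.364 to 2.45 and 3.10, in a window that itself went from 0.661 and 0.751 to 1.84 and 2.06. In control libraries this peak was below its own surroundings. The peak at 68105189 to 68105921 was already bright, at 5.91 and 5.82 in control, and reached 21.5 and 20.01 in actl6a libraries, with its window at 1.71 and 1.88 against 3.69 and 3.76. The peak at 43480659 to 43480954 went from 3.07 and 1.91 to 9.50 and 8.19. The neighbouring peaks at 38995914 to 38996997 and 38998684 to 38999816 went from 1.03 and 1.14 to 4.25 and 4.30, and from 0.900 and 1.21 to 4.03 and 4.04. Their shared window was at 0.433 and 0.461 in control against 1.03 and 0.952 in actl6a libraries. The groups were apart in all 5 peaks, which the pick required, and also in their windows. For these 10 peaks the limma adjusted p lay between 0.00708 and 0.0450.

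When the change of each peak was tested relative to its window, limma called 0 of the 361 long-arm peaks at an adjusted p under 0.05, and 0 of all 29639. At an unadjusted p under 0.05 there were 86 on the arm (23.8%), 47 lower and 39 higher, where 22.9% of all union peaks passed. By direction this was 13.0% lower and 10.8% higher on the arm, against 18.8% lower and 4.09% higher over all union peaks. The median log2 change relative to the window was -0.128 on the arm and -0.371 over all union peaks. Peaks of 1 list were picked in that group, and actl6a-only peaks made up 37.1% on the arm against 18.8% over all union peaks. Within lists the medians on the arm were -0.198 for shared, -0.466 for control-only and 0.519 for actl6a-only peaks. On the other chromosomes they were -0.305, -0.578 and 0.423. The part of this mix of lists in the shares by direction was not tested. The libraries were not aligned on peak signal for this test. The 20 peaks called before had a median change relative to the window of -1.21 for the falls and 0.89 for the rises, with adjusted p of 0.0509 to 0.646. They were picked by the same peak values, so these values are a description. The test had little power: of simulated peaks changed by 1 relative to their window, on the log2 scale, it called 6.17%. A missed threshold therefore does not show that a peak moved only with its window.

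The outcome also sat close to the threshold. At an adjusted p under 0.1 limma called 17 of 361 long-arm peaks, 12 lower and 5 higher. Over all 29639 union peaks it called 1124 at this limit, 870 lower and 254 higher. With a single library left out, some peaks were called on the arm and over all union peaks in each fit. Those counts are not compared here, as 1 group then had a single library. The smallest adjusted p belonged to the peak at 33244521 to 33244817, which changed by -2.06 relative to its window (SE 0.360, adjusted p 0.0509 in limma). The next examples were picked after their values were seen. The peak at 59745221 to 59745725 had 1.70 and 1.000 in control against 0.233 and 0.205 in actl6a libraries, while its window overlapped between the groups, at 0.586 and 0.545 against 0.566 and 0.763. The peak at 42831225 to 42831525 went the other way, from 0.406 and 0.660 to 3.23 and 2.19, over a window at 0.521 and 0.503 against 0.684 and 0.639. Both had an adjusted p of 0.0635 in limma.

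Across the 361 long-arm peaks, the change of a peak and the change of its window background had a Pearson's r of 0.665, against 0.0479 over the 781 union peaks on the rest of chromosome 4. Within the long-arm lists r was 0.499 for shared, 0.603 for control-only and 0.587 for actl6a-only peaks. These correlations are across peaks of the same 4 libraries, and peaks in 1 window share their background. Window backgrounds also varied more on the arm, with an SD of their log2 change of 0.37 against 0.12 on the rest of the chromosome.

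**Figure D5:**
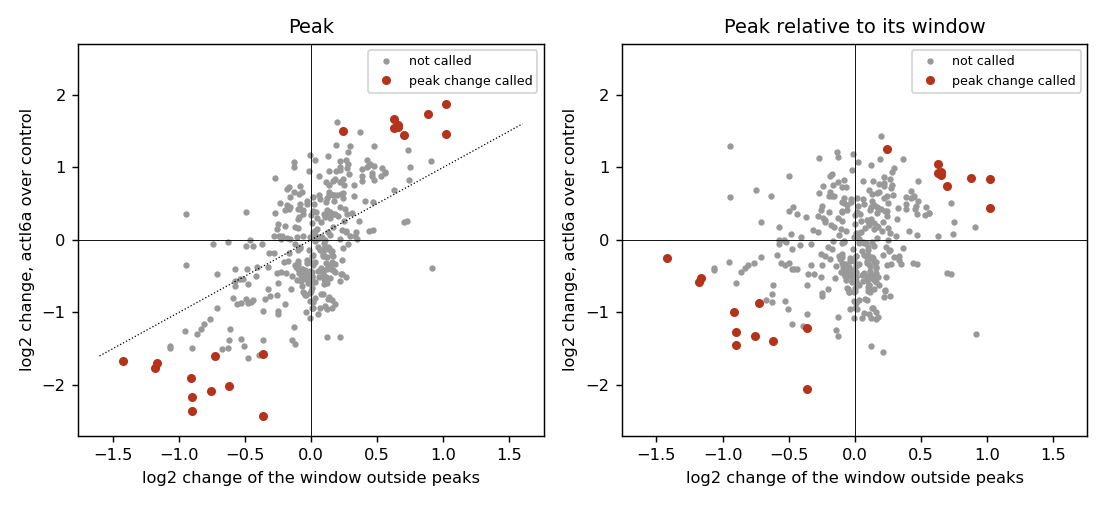
Log2 change (actl6a over control) of each of the 361 long-arm union peaks against that of its window outside peaks, on the left for the peak and on the right for the peak relative to its window; red points are the 20 called peaks and the dotted line marks equal change. On the left the points rise from lower left to upper right, and on the right the red points lie nearer to 0 while keeping their direction.

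The 3 brightest peaks shared by both lists lie together near the chromosome end and were not called. At 77558291 to 77561536 the signal was 44.2 and 45.3 in control against 48.05 and 49.4 in actl6a libraries. At 77555799 to 77556449 it was 42.8 and 44.1 in control against 45.1 and 43.9 in actl6a libraries. At 77556850 to 77557115 it was 40.3 and 41.3 in control against 42.2 and 38.9 in actl6a libraries. Their window had 21.7 and 21.98 in control against 22.2 and 22.4 in actl6a libraries outside peaks, so all 3 stood 1.73 to 2.2 times above an already bright stretch. Their log2 changes were 0.12, 0.034 and -0.0088 (SE 0.194 to 0.204), with adjusted p of 0.678 to 0.979 in limma.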

How the data were processed

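Each of the 4 libraries has a coverage track and each group a peak list. The authors deposited each track as signal per 50 bp bin. The submitters' processing notes name FastQC, Trim Galore, Bowtie2, MACS2, deepTools and GRCz11; read filters, duplicates, transposase shift, normalization and the peak threshold are not given in the sources used here. Values up to 20 times the smallest value of a track were whole multiples of it, within 0.1 of that value, in at least 99.9992% of bins, and depth was inferred by reading that value as 1 read in RPKM per bin; this reading is not stated anywhere. The deposited peak lists give a start and an end in bp and no score. Sequence names and lengths are those of GRCz11; coordinates count from 1.

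Tracks were divided by their mean over chromosomes 1 to 25. Windows of 10 kb were tested on log2(coverage + 0.1), after leaving out windows with a mean under 0.05. Union peaks, and union peaks relative to their window, were tested on log2(coverage + 0.5). Each fit used limma 3.58.1 (eBayes with a trend, R 4.3.3) over the whole table, with Benjamini-Hochberg adjusted p under 0.05; folds of low values are understated. Labels name the libraries as separate samples, and p-values rest on the spread between them. In limma the spread of a feature itself counted with 2 degrees of freedom. The spread shared over features counted with 48.8 for windows, 32.9 for peaks and 23.5 for peaks relative to their window. The limma p-values thus rest mostly on the shared spread. Means and medians per library were compared by exact permutation. Other steps ran in Python 3.11.15 with scipy 1.17.1, pandas 2.3.3, numpy 2.4.6 and, for plots, matplotlib 3.10.9. On simulated data with 200 changed features, a log2 change of 1 was called in 99.5% of windows, 10.8% of peaks and 6.17% of peaks relative to their window, with 13.0, 2.00 and 0.667 false calls per draw; a change of 0.5 was called in 17.2%, 0% and 0.167%.

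The members, limits and lists were chosen with earlier results of these data known. Named were the 3 longest domains of difference in each direction, the longest level domains, the 3 largest called falls and rises of windows, the 5 of peaks, called peaks relative to their window (none), and the 3 brightest shared peaks. Called windows and peaks were named only where the groups did not overlap. Sequence and genes need the build of the tracks and were not used here.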

Additional observations from a re-analysis of the deposited data

How the results depend on the processing

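Long-arm windows called in limma (1320) stayed within 1.5 times under each setting run except leaving out actl6a replicate 1; the range without 1 library was 759 to 1265. Called peaks (20) were fewer with a pseudocount of 0.1 (3), a mean signal of at least 2 (8) and quantile normalization (11), and more without the eBayes trend (32), at an adjusted p under 0.1 (55) and without 1 library (15 to 34). Peaks called relative to their window numbered 0 on the arm and 0 over all union peaks. The counts became 2 and 77 with a pseudocount of 2, and 1 and 5 with a 50 kb background window. They were 1 and 66 without the eBayes trend, and 17 and 1124 at an adjusted p under 0.1. Some were also called in each fit without 1 library. The cause was not tested. A fit with a replicate block called 1475 of 4575 windows, 81 of 361 peaks and 33 of 361 peaks relative to their window on the arm. Over all chromosomes the same fit called 2481 of 134233, 2796 of 29639 and 2602 of 29639. The labels state no pairing, and replicate differences of the groups correlated at 0.0174 over windows and 0.0564 over union peaks. Windows in domains of difference numbered 1839, and 974 with a limit of 0.5. Windows in domains of level numbered 1915, and 742 with limits of 1.5 and 0.5. The density ratio of the control list was 0.170 over union peaks with a mean of at least 2. Mean coverage and peak over background kept the sign of their differences in each setting run. Mean coverage was -0.213 in track units without scaling. Peak over background was -0.483 over shared peaks (p = 0.667, exact permutation test) and -0.0881 with flanks as background. Of the named features, 6 windows kept their call in 78 of 78 fits and 10 peaks in 96 of 126, with 0 reversals. In fits without 1 library, the group with 1 library left gives no spread of its own. In these fits and with the replicate block, limma replaced the spread of each feature by that shared over features of similar level. At these depths the median spread within groups was 0.12 on the log2 scale over long-arm windows; the part of depth between groups was not tested.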

Other observations

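Some stretches of the long arm had next to no coverage in any library. The mean over the 4 libraries was under 0.05 times the genome mean in 235 windows of 10 kb (4.89%), against 0 on the rest of chromosome 4 and 58 (0.0458%) on the other chromosomes. They lay in 36 runs, the longest from 45640001 to 46430000 and from 66040001 to 66440000.

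At the other end, 29 long-arm windows had a mean above 3. The brightest pair, from 77550001 to 77570000, had 27.6, 28.6, 28.3 and 29.1 in its first window in control replicates 1 and 2 and actl6a replicates 1 and 2. All 200 bins of that first window were above 5 times the genome mean in all 4 libraries. The window from 41890001 to 41900000 had 12.5 and 12.8 in control against 14.8 and 14.7 in actl6a libraries and held no union peak. A pair of bright windows, picked after their values were seen, changed in opposite directions: the window from 68100001 to 68110000 rose from 2.02 and 2.17 to 5.00 and 4.95, and the window from 68690001 to 68700000 fell from 7.60 and 7.0 to 2.61 and 3.15.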
